A study of Mus musculus with 9 samples.

Results

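Motor neurons of the dorsolateral nucleus (DL) and of the oculomotor nucleus (OMN) were compared directly. The comparison rests on 6 of the 9 arrays of the series, chosen by their titles: 3 of DL and 3 of OMN. The other 3 arrays, of motor neurons from lumbar segment L5, entered the fit only to add to the estimate of the spread and are given as a reference. All animals were untreated wild-type C57BL/6J males at postnatal day 7. DL was cut from the spinal cord at lumbar level 6 and OMN from the midbrain. Per the protocols, about 200 neurons of a pool were cut by laser from frozen sections of 12 µm stained with cresyl violet, and 3 animals were used. The RNA input to amplification was 1.5 ng or more, and the arrays were of the type Affymetrix Mouse Genome 430 2.0. The labels name no marker by which the neurons were recognised beyond the stain and the nucleus.

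In amyotrophic lateral sclerosis (ALS) motor neurons of limb and bulbar muscles die, whereas eye muscle motor neurons and those serving the pelvic sphincters largely survive. The oculomotor nucleus drives most of the extraocular muscles. The dorsolateral nucleus of rodents drives striated muscles of the pelvic floor, among them the external urethral sphincter, and is taken as the counterpart of Onuf's nucleus in humans. The pools arise at far ends of the neural tube: Hox genes set segmental identity in the spinal cord and hindbrain, while Otx, Engrailed and Iroquois factors pattern the midbrain, where Hox genes are normally silent.

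DL and OMN differed in 545 of 18193 named genes, 3.00% of those tested, by limma at a Benjamini-Hochberg adjusted p under 0.05. Such genes are termed called below. In DL 247 genes were higher (1.36%) and 298 lower (1.64%). A log2 difference is DL minus OMN on log2(intensity + 16), with the standard error of the fit, and p-values are from limma, adjusted over all named genes. The smallest called difference was 0.85 in size, the median 1.79, and 206 calls exceeded 2. The arrays of both pools did not overlap in 542 of the calls and in 3830 of all genes (21.1%). At an unadjusted p under 0.05 there were 2920 genes (16.1%). Of 312 called genes with several probe sets, 113 had 2 or more called the same way. In the lists below, 1 of 5 probe sets was called for Gabra2 and 1 of 4 for Kcnd3, Cdh10 and Adra2c. It was 1 of 3 for Esrrb, Kirrel3, Ina and Hspa1b, and 1 of 2 for Lhx4, Tac1, Reln and Bdnf, among others. For Pde1c and Runx1 it was 2 of 6. Among the genes named below, Cdh22, Adamts4, Rgs6, Slc16a3 and Fa2h were called as genes while the same probe set missed the threshold in the fit over all probe sets. With each array centred on its median, 335 genes were higher and 218 lower, so that the share of higher calls was 60.6% in place of 45.3%, and the median difference of all genes moved from -0.036 to 0.111. The count of calls was 279, 365 and 363 without DL array 1, 2 or 3, was 201, 194 and 192 without OMN array 1, 2 or 3, and was 339, 341 and 342 without L5 array 1, 2 or 3. Below, a call that ended on leaving out an array is named with those arrays, and a call that no single array ended is named with any other setting that ended it. Counts of calls in a list are given where leaving out an array moved them by over 1.5 times, and without both DL arrays 1 and 3.

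**Figure D1:**
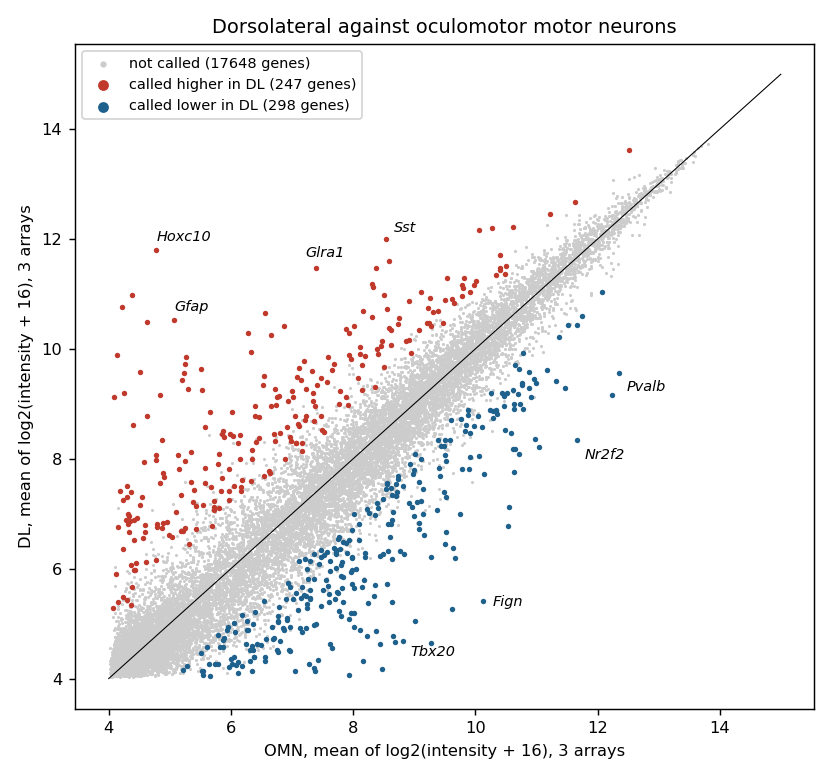
Mean of log2(intensity + 16) over 3 arrays in OMN (horizontal axis) and in DL (vertical axis), 1 point per gene, with the 247 genes called higher in DL in red, the 298 called lower in blue and all others in grey. The line marks equal levels, and called genes lie on both sides of it at all levels, with Hoxc10, Gfap and Glra1 far above it and Fign, Tbx20 and Nr2f2 far below.

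The arrays of DL were less alike than those of OMN. Over all genes Pearson's r was 0.949 to 0.954 between DL arrays, 0.976 to 0.979 between OMN arrays and 0.940 to 0.949 between an array of DL and one of OMN. The median absolute log2 difference between an array of DL and one of OMN was 0.386 to 0.420, against 0.366 to 0.388 within DL and 0.252 to 0.281 within OMN. The median SD over 7120 genes brighter than 200 was 0.294 in DL and 0.171 in OMN, and the fit uses 1 spread for all pools. A measure of RNA integrity, the Gapdh 3' over 5' ratio, was 3.27, 2.44 and 3.75 for DL arrays 1, 2 and 3 and lay between 2.33 and 2.67 for OMN. The same ratio for actin was 0.934, 0.807 and 0.995 for DL and lay between 0.9 and 0.934 for OMN. Without DL arrays 1 and 3, the pair with the higher ratios, 126 genes were called. Intensities of 18.3 or less are termed noise below, a level set by control probe sets whose transcripts had not been added.

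Defining motor neuron genes other than Chat were bright in both pools. Of 7, limma called 0, with 1, Prph, higher in DL at an unadjusted p under 0.05. In a list of 7, a count of 0 is near the 3.00% of all genes. Slc5a7, the choline transporter of cholinergic terminals, read 2864, 3351 and 3475 on the 3 DL arrays and 4188, 4192 and 3942 on the 3 OMN arrays. Isl1, a LIM homeodomain factor of motor neurons, read 3128, 2726 and 2299 against 2084, 2127 and 2176. The peripherin gene Prph, an intermediate filament of neurons with peripheral axons, read 9121, 9228 and 7530 against 4571, 4796 and 5166 (log2 difference 0.83 ± 0.19, adjusted p = 0.0697). All 3 DL arrays were above all 3 OMN arrays for Isl1 and Prph, and below them for Slc5a7. Chat, the acetylcholine synthesising enzyme, was at or near noise in both pools, 16.7, 21.8 and 8.4 against 24.5, 20.5 and 22, and its single probe set could not serve as a marker. In bulk RNA of cut cells, fewer cells of a type and less RNA per cell cannot be told apart.

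Genes of axial position had the largest shares of calls among the 37 functional lists, 62.5% of the posterior Hox genes and 56% of the midbrain factors against 3.00% of all genes. Among the 16 posterior Hox genes on the array (paralog groups 8 to 13), DL had 10 higher and 0 lower, with a median log2 difference of 3.67 against -0.036 over all genes. Of 17 genes of groups 1 to 7, 3 were higher and 0 lower, with a median of 0.79 and 9 at an unadjusted p under 0.05. The counts were 8 and 3 without DL arrays 1 and 3, and lay between 9 and 10 and between 3 and 4 on leaving out any one array.

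Hoxc10, a gene of the lumbar segments, read 3453, 3805 and 3416 in DL and 19.7, 5.5 and 10.9 in OMN (log2 difference 7.02 ± 0.24, adjusted p = 8.67e-05). Hoxd11, a gene of the lumbosacral boundary, read 2005, 2284 and 1753 against 3.6, 2.4 and 8.8 (6.60 ± 0.25, adjusted p = 9.6e-05). Hoxa11 read 840, 1739 and 280 against 9.1, 11 and 1.7 (5.06 ± 0.42, adjusted p = 0.00219). No DL array came near an OMN array in these genes, but the DL arrays themselves differed in Hoxa11, with array 2 the highest and array 3 the lowest. With all 3 OMN arrays at or under noise, Hoxd9 was at least 51-fold higher in DL, Hoxa10 at least 29.5-fold, Hoxa5 at least 9.08-fold and Hoxc4 at least 8.3-fold. Hoxa3, a gene of the caudal hindbrain and neck, read 474, 687 and 561 in DL and 2.8, 3.7 and 2.8 in OMN, and 2 of its 4 probe sets were called higher. Hoxa5 and Hoxc4, which act at cervical levels, read 138 to 215 and 110 to 184 in DL. Hoxb5, Hoxb6 and Hoxb3 were not called, with log2 differences of 1.94 ± 0.52, 1.29 ± 0.36 and 1.00 ± 0.33. Of 13 genes for Hox partners, Pknox2 was higher (1.44 ± 0.20, adjusted p = 0.0126) and Pbx3 lower (-1.39 ± 0.21, adjusted p = 0.0179). The call of Pknox2 was lost without DL array 3 or OMN array 1 or 3 and that of Pbx3 was lost without DL array 1 or 2 or any OMN array. Calls among the partners numbered 0 without OMN array 1 or 3, 1 without any DL array or OMN array 2 and 0 without both DL arrays 1 and 3.

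Of 25 factors of midbrain patterning and of the oculomotor nucleus, 14 were lower in DL and 0 higher, with a median of -1.75. Calls among the midbrain factors numbered 8 without OMN array 3, 9 without OMN array 1 or 2 and 7 without both DL arrays 1 and 3. Tbx20, which encodes a T-box protein of brainstem motor nuclei, read 24.9, 3.8 and 4.7 in DL and 310, 539 and 485 in OMN (-4.13 ± 0.36, adjusted p = 0.00222). En2, an Engrailed factor of the midbrain and hindbrain border, read 0.9, 11.3 and 1.4 against 285, 274 and 254 (-3.84 ± 0.31, adjusted p = 0.00208). Irx5 and Irx6, neighbouring Iroquois genes, differed by -3.87 ± 0.22 and -2.86 ± 0.25, and all 3 OMN arrays were above all 3 DL arrays in both. Otx1, Otx2 and Sim1 were at or under noise on all DL arrays, and their OMN readings lay between 92.7 and 139, between 58.5 and 78 and between 44.2 and 64.2. En2 lost its call with a pseudocount of 1 (adjusted p = 0.0633), and Otx2 lost its call on the 6 arrays alone (adjusted p = 0.0619), with a pseudocount of 1 (adjusted p = 0.0817) and with the Gapdh ratio in the model (adjusted p = 0.0501). Otx1, Otx2 and Sim1 were at least 5.85-fold, 3.67-fold and 2.9-fold lower in DL. Phox2a, needed for the oculomotor nucleus to form, was dim in both pools, 4.3, 1.3 and 1.9 in DL and 12.6, 15.2 and 30 in OMN, and was not called (-0.90 ± 0.23, adjusted p = 0.099).

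**Figure D2:**
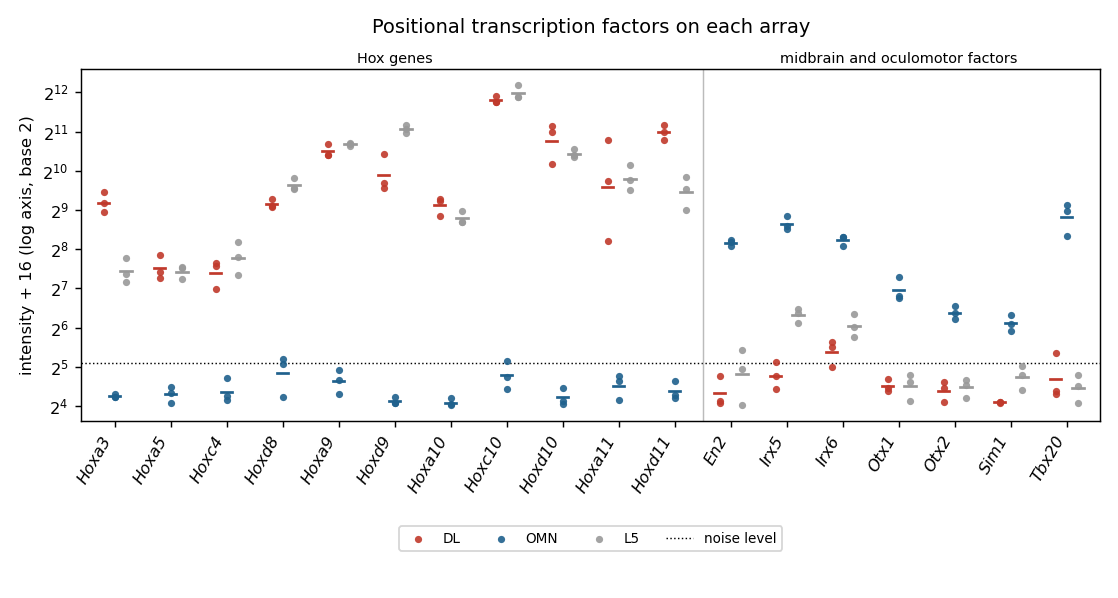
Intensity plus 16 on a log axis for 11 Hox genes and 7 midbrain and oculomotor factors, with 1 point for each of the 3 arrays of DL (red), OMN (blue) and L5 (grey) and a bar at the geometric mean. The dotted line is the noise level of 18.3 plus 16. The Hox genes lie at or near the noise level in OMN and above it in DL and L5, and the other factors are highest in OMN. Levels may be compared between pools within a gene, not between genes.

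Of 31 homeodomain and other factors of motor neuron identity, 6 were higher and 5 lower in DL, with a median of 0.25. Nr2f2, an orphan nuclear receptor also called COUP-TFII, read 261, 555 and 196 in DL and 3730, 3118 and 2930 in OMN (-3.34 ± 0.31, adjusted p = 0.0028), and 4 of its 6 probe sets were called lower. Lhx4, a LIM factor of motor neurons whose axons leave ventrally, read 59.6, 59.9 and 214 against 1610, 1458 and 1369 (-3.77 ± 0.40, adjusted p = 0.00467). Mnx1, a homeodomain factor that marks spinal somatic motor neurons, read 89.7, 122 and 71.3 against 0.9, 1.4 and 3 (2.61 ± 0.25, adjusted p = 0.00288). The pools did not overlap in these genes, and Mnx1 was under noise on all OMN arrays, at least 5.04-fold lower there. Tshz1, a zinc finger factor, was higher in DL on 2 probe sets of 2 (2.38 ± 0.23, adjusted p = 0.00339). Isl2 and Runx1 were also higher, at 2.01 ± 0.36 and 3.30 ± 0.46, but the Runx1 call was lost without DL array 3 or OMN array 2 or 3 and that of Isl2 was lost without any DL array, any OMN array or L5 array 1 or 2. Runx1, a runt factor known from sensory neurons, read 109, 563 and 248 in DL, with array 2 far above array 1. Nr2f2, Lhx4, Mnx1 and Tshz1 kept their calls whichever array was left out, but Lhx4 lost its call on the 6 arrays alone (adjusted p = 0.0528). Calls among the identity factors numbered 5 without OMN array 3, 6 without DL array 3, 7 without DL array 1 or OMN array 2 and 4 without both DL arrays 1 and 3.

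The alpha subunits of the glycine receptor were higher in DL. Of 21 genes for glycine and GABA receptors, their clustering and chloride transport, 5 were higher and 1 lower in DL, with a median of 0.16. Glra1, the alpha subunit of the adult glycine receptor, read 2770, 2631 and 3150 in DL and 245, 111 and 128 in OMN (4.09 ± 0.27, adjusted p = 0.000704), and both of its probe sets were called. Glra2, the fetal alpha subunit, read 3562, 2645 and 3138 against 328, 418 and 364 (3.02 ± 0.23, adjusted p = 0.00134). Glra3 read 159, 214 and 268 against 33.2, 56.3 and 53.1 (1.85 ± 0.23, adjusted p = 0.00881). All 3 alpha subunits were higher on every DL array than on any OMN array, while Glrb, the beta subunit that anchors the receptor, differed by -0.34 ± 0.20 with an interval of -0.80 to 0.13 and was not called. Gabrb2, a beta subunit of the GABA-A receptor, ran the opposite way, 110, 330 and 214 in DL against 1461, 1742 and 1522 in OMN (-2.88 ± 0.31, adjusted p = 0.00467, with 4 of 5 probe sets called lower). Gabra2 and Gabre were higher at 1.02 ± 0.18 and 2.76 ± 0.52. The Gabra2 call was lost without any one of the 9 arrays, that of Gabre was lost without DL array 3, any OMN array or L5 array 1 or 3 and that of Glra3 was lost without any OMN array. Calls among the glycine and GABA genes numbered 3 without any OMN array and 2 without both DL arrays 1 and 3. Of 6 markers of inhibitory neurons, 2 were higher in DL and 0 lower, with 4 differences above 0 and 2 below. The lowest was -1.27, and 1 was lower at an unadjusted p under 0.05. The sum of the 6 was 5036 to 5922 in DL, 1928 to 2724 in OMN and 1642 to 2284 in L5. Of the 6, Slc6a5 read 457, 558 and 637 in L5, against 440 to 931 in DL and 11.1 to 39.2 in OMN. The part of such cells in the receptor differences was not tested.

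The 13 acetylcholine receptor genes held 3 calls higher and 2 lower in DL, with a median of -0.14. Chrna3, an alpha subunit of ganglion-type nicotinic receptors, read 797, 1012 and 1108 in DL and 36, 70.8 and 97.4 in OMN (3.61 ± 0.23, adjusted p = 0.000601). Chrna5 and Chrnb4, which lie in one gene cluster with it and assemble with it, were higher at 1.67 ± 0.22 and 1.61 ± 0.31. Chrna5 was under noise on all OMN arrays and read 52.7, 45.9 and 61.6 in DL. Chrnb4 was under noise on OMN arrays 2 and 3. Chrm1, a muscarinic receptor coupled to Gq, read 28.7, 19.5 and 30.2 in DL and 507, 270 and 408 in OMN (-3.25 ± 0.28, adjusted p = 0.0023), and both probe sets were called lower. Chrm3 was lower at -1.36 ± 0.24. Chrna3 and Chrm1 kept their calls whichever array was left out. The Chrna5 call was lost without OMN array 1 or 3, that of Chrm3 was lost without any DL array, any OMN array or L5 array 1 or 3 and that of Chrnb4 was lost without DL array 2 or 3, any OMN array or any L5 array. Calls among the acetylcholine receptors numbered 2 without OMN array 1 or 3, 3 without DL array 2 or 3, OMN array 2 or L5 array 1 or 3 and 1 without both DL arrays 1 and 3. Of 8 genes that make, store and break down acetylcholine, Bche, the butyrylcholinesterase, was higher in DL on 3 probe sets of 3, 1927, 863 and 1028 against 60.5, 167 and 56.2 (3.60 ± 0.54, adjusted p = 0.0171, lost without DL array 1 or 3 or OMN array 3), and Ache differed by 0.19 ± 0.23 and was not called.

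The 26 genes for glutamate receptors held 1 call higher and 2 lower in DL. Grm3, a metabotropic receptor coupled to Gi, read 148, 105 and 104 in DL and 702, 625 and 623 in OMN (-2.32 ± 0.22, adjusted p = 0.00303). Grik1, a kainate receptor subunit, was higher (1.59 ± 0.23, adjusted p = 0.0149) and Gria3, an AMPA subunit, lower (-1.06 ± 0.19, adjusted p = 0.0312). Grm3 kept its call whichever array was left out, while that of Grik1 was lost without DL array 1 or 2 or any OMN array and that of Gria3 was lost without any one of the 9 arrays. Calls among the glutamate receptors numbered 1 without DL array 1 or 2 or any OMN array and 0 without both DL arrays 1 and 3. Gria2, the AMPA subunit that blocks calcium entry, read 1850, 1658 and 1909 against 1858, 1483 and 1762. The groups overlapped, and its difference of 0.09 ± 0.19 had an interval of -0.37 to 0.55. Of 21 receptors for serotonin, noradrenaline, dopamine and histamine, 4 were higher and 2 lower. Htr1d, an inhibitory serotonin receptor known from gamma motor neurons and sensory afferents, read 67, 75.4 and 58.2 in DL and 648, 790 and 937 in OMN (-3.28 ± 0.37, adjusted p = 0.00576), with all 3 probe sets called lower. Htr3a, the serotonin-gated channel, was lower too, 846, 667 and 796 against 2287, 2296 and 2318 (-1.57 ± 0.21, adjusted p = 0.0106). Htr7, a receptor coupled to Gs, was higher, 1777, 1627 and 1707 against 545, 679 and 536 (1.52 ± 0.19, adjusted p = 0.00846). Htr2c, Htr1a and Adra2c were higher at 1.23 ± 0.23, 1.80 ± 0.34 and 1.45 ± 0.26. Htr1d kept its call whichever array was left out. The call of Htr7 was lost without OMN array 1 or 3, that of Htr3a was lost without any OMN array, that of Htr1a was lost without DL array 1 or 2, any OMN array or L5 array 1 or 3, and those of Htr2c and Adra2c were lost without any one of the 9 arrays. Calls among the amine receptors numbered 1 without OMN array 1 or 3, 2 without OMN array 2, 3 without DL array 1 or 2 or L5 array 1 or 3 and 1 without both DL arrays 1 and 3.

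Peptide precursors separated the pools in both directions. Of 30 genes, 4 were higher and 4 lower in DL, with a median of 0.24. Sst, the somatostatin precursor, read 4025, 4568 and 3737 in DL and 470, 272 and 354 in OMN (3.46 ± 0.31, adjusted p = 0.00233). Tac1, the substance P precursor, read 2408, 2033 and 2502 against 195, 339 and 404 (2.88 ± 0.31, adjusted p = 0.00476), and Pnoc, the nociceptin precursor, 640, 713 and 800 against 66.9, 84.3 and 81.9 (2.97 ± 0.19, adjusted p = 0.000601). All DL arrays were several times above all OMN arrays in these genes, and Sst, Tac1 and Pnoc kept their calls whichever array was left out. Gal, the galanin precursor, was higher at 1.99 ± 0.25. Cartpt, the precursor of the CART peptide, read 762, 596 and 497 in DL and 3207, 3930 and 1778 in OMN (-2.18 ± 0.27, adjusted p = 0.00813). Adcyap1, the PACAP precursor, was lower, 267, 19.7 and 90 against 739, 632 and 795 (-2.84 ± 0.50, adjusted p = 0.0319). The groups did not overlap, but Adcyap1 varied over more than a factor of 10 among the DL arrays. Uts2 and Adm, the urotensin 2 and adrenomedullin precursors, were the other calls lower in DL, at -2.12 ± 0.39 and -1.23 ± 0.25. The Uts2 call was lost without any DL array, OMN array 1 or 2 or any L5 array, and the Adm call without DL array 2 or 3, any OMN array or any L5 array. Calcb, the beta CGRP gene of motor neurons, was bright in both pools and differed by 0.06 ± 0.19 with an interval of -0.38 to 0.49. The call of Cartpt was lost without OMN array 1, that of Gal was lost without OMN array 1 or 2 and that of Adcyap1 was lost without DL array 2 or 3, any OMN array or any L5 array. Calls among the peptide precursors numbered 3 without OMN array 1, 4 without OMN array 2, 5 without DL array 3 or any L5 array and 2 without both DL arrays 1 and 3. Next to the oculomotor nucleus lies the Edinger-Westphal nucleus, whose peptidergic neurons make CART, Cck and urocortin. Their 3 markers summed to 755 to 968 in DL and 1879 to 4205 in OMN, with Cartpt the largest part in both pools, while Ucn read 18.8, 32.1 and 3.9 in OMN and 11.6, 25.8 and 23.1 in DL, and Cck 147, 243 and 97.2 and 194, 305 and 235. The part of such cells in the Cartpt difference was not tested.

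The promoters of a pair of these peptide genes are shown because both hold the palindromic cAMP response element TGACGTCA while Sst was higher in DL and Cartpt lower. They are RefSeq windows of build GRCm38.p6, from 250 bases before to 50 bases after the start of the gene, and both genes lie on the minus strand: Sst at chr16:23890795-23891094 and Cartpt at chr13:99900634-99900933. Capitals mark the element, which begins 48 bases before the start of Sst and 112 bases before that of Cartpt.
Sst: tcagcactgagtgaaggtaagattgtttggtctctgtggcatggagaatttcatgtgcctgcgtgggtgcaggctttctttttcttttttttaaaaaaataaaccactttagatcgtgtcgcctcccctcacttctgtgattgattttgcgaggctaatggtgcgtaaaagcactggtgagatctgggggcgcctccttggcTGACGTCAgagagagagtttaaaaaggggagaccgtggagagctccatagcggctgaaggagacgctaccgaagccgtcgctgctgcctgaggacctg
Cartpt: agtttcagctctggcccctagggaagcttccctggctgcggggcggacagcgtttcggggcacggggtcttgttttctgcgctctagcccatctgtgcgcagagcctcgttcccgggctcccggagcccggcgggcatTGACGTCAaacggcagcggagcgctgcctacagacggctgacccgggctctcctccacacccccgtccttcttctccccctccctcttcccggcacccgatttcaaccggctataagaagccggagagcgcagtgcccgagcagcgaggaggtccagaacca
The element was in 4 of 24 peptide genes with a promoter window (16.7%), the others being Ucn and Scg2, and in 422 of 14452 tested genes (2.92%). It was in 4 of 193 genes called higher in DL (2.07%) and 8 of 232 called lower (3.45%). The letters TATAAA, on either strand, were in 11.5% of all windows, 11.9% of those of genes called higher and 10.3% of those called lower. A match only describes the letters in this window.

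The 44 genes for peptide receptors held 3 calls higher and 4 lower in DL, with a median of -0.05. Cckbr, the cholecystokinin B receptor, was under noise on all DL arrays and read 81.9, 66.7 and 88 in OMN, at least 4.28-fold lower in DL (-2.17 ± 0.23, adjusted p = 0.00459). Avpr1a, the vasopressin V1a receptor, was higher in DL, 465, 186 and 483 against 31, 52.1 and 47.4 (2.63 ± 0.39, adjusted p = 0.0149), on 1 of its 2 probe sets. Tacr1, the substance P receptor, was lower (-1.25 ± 0.18, adjusted p = 0.0135), opposite to the substance P precursor. Npy2r was higher at 1.54 ± 0.24 and Ednrb lower at -1.15 ± 0.19. Cckbr kept its call whichever array was left out. The call of Avpr1a was lost without DL array 3 or any OMN array, that of Tacr1 was lost without DL array 2 or any OMN array, that of Npy2r was lost without DL array 1 or 3, any OMN array or L5 array 3 and that of Ednrb was lost without any DL array, any OMN array or L5 array 2. Calls among the peptide receptors numbered 1 without OMN array 2 or 3, 2 without DL array 3 or OMN array 1, 3 without DL array 1, 4 without DL array 2 or L5 array 2 or 3 and 1 without both DL arrays 1 and 3. Oxtr, the oxytocin receptor, read 47.4, 0.7 and 132 in DL and 75, 150 and 111 in OMN, with overlapping groups, and was not called.

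**Figure D3:**
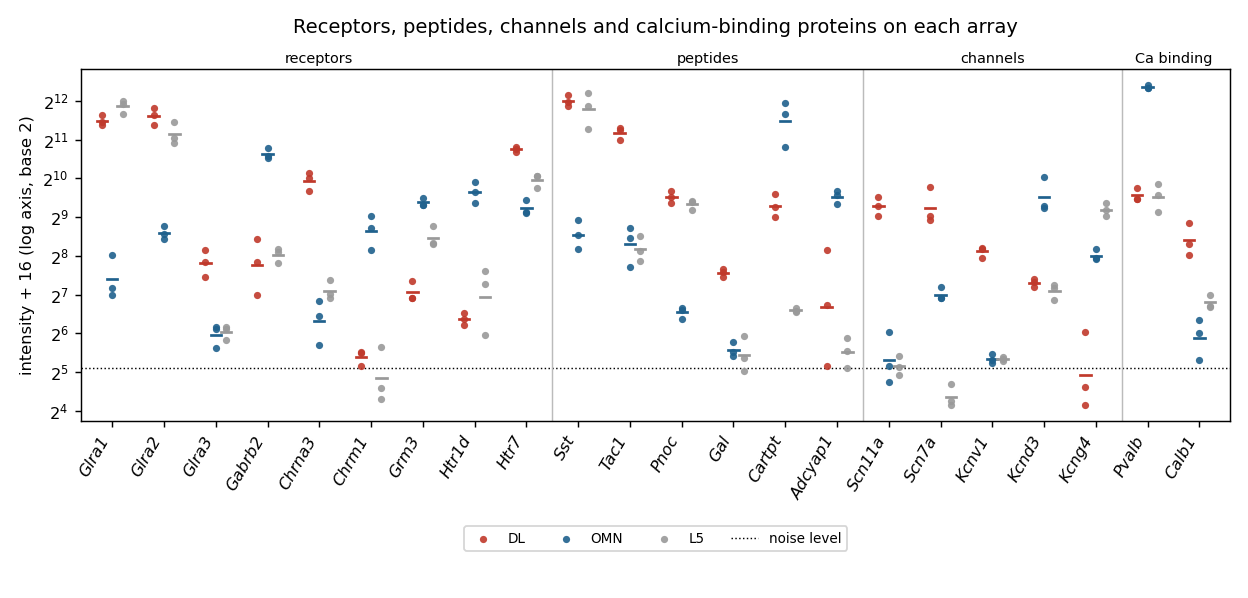
Intensity plus 16 on a log axis for 22 receptor, peptide, channel and calcium-binding genes, with 1 point for each of the 3 arrays of DL (red), OMN (blue) and L5 (grey) and a bar at the geometric mean. The dotted line is the noise level of 18.3 plus 16. Glra1, Sst and Scn11a are higher on all DL arrays and Chrm1, Cartpt and Pvalb on all OMN arrays, and the L5 arrays follow DL in some genes and OMN in others.

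Of 15 sodium channel genes, 2 were higher and 1 lower in DL, with a median of -0.13. Scn11a, which encodes the persistent channel Nav1.9 known from sensory neurons, read 609, 714 and 503 in DL and 49.3, 19.4 and 10.6 in OMN (3.97 ± 0.28, adjusted p = 0.000918). Scn7a, the sodium-sensing channel Nax, read 856, 471 and 507 against 104, 104 and 131 (2.24 ± 0.24, adjusted p = 0.00467). Scn9a, the sensory channel Nav1.7, read 596, 1445 and 1207 against 394, 273 and 317. Its brightest probe set was not called (adjusted p = 0.0671), although 4 of its 5 probe sets were called higher in the fit over all probe sets. Fgf13, which binds sodium channels, was lower (-1.29 ± 0.17, adjusted p = 0.0104, lost without any OMN array), and Scn1a, the channel Nav1.1 of fast-firing neurons, was not called at -0.81 ± 0.18. Of 8 markers of sensory neurons and Schwann cells, Scn11a, Scn7a, Pirt and Pmp22 were higher in DL. The sum of the 8, which includes both channels, was 2558 to 3508 in DL, 316 to 383 in OMN and 1945 to 2304 in L5. In L5 Pmp22 made up most of the sum, and the means of Scn11a, Scn7a and Pirt were 19.9, 4.9 and 15.4. Pirt, a membrane protein of sensory neurons, read 670, 630 and 1348 in DL and 94.7, 2.9 and 10.2 in OMN (4.48 ± 0.66, adjusted p = 0.0149, lost without DL array 2 or 3 or OMN array 2 or 3). Pmp22, a myelin protein of peripheral nerve, read 826, 720 and 1077 against 94, 143 and 167 (2.58 ± 0.22, adjusted p = 0.00219). Scn10a and Trpv1, which define nociceptors, and Egr2, a factor of myelinating Schwann cells, were at or under noise on all 6 arrays, and the part of sensory or Schwann cells in the channel differences was not tested. Scn11a, Scn7a and Pmp22 kept their calls whichever array was left out, but Scn7a lost its call on the 6 arrays alone (adjusted p = 0.0616) and with a pseudocount of 1 (adjusted p = 0.0691). Without both DL arrays 1 and 3 there was 1 call among the sodium channels and 1 among the sensory and Schwann cell markers.

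Among 66 genes for potassium channels, DL had 3 higher and 6 lower. The median of the list was -0.35, and 18 of the 66 were above 0, against 45.8% of all genes. Kcnd3, the A-type channel Kv4.3, read 131, 146 and 153 in DL and 1038, 581 and 605 in OMN (-2.20 ± 0.27, adjusted p = 0.00813), with 1 of 4 probe sets called. Kcng4, a silent subunit that modifies Kv2 channels, read 8.4, 50.1 and 1.8 against 229, 272 and 225 (-3.07 ± 0.34, adjusted p = 0.00491), and DL array 2 was above noise while arrays 1 and 3 were not. Kcnk1, a two-pore leak channel, was lower at -1.26 ± 0.23, and Kcnmb2, Kcnn1 and Kcnt1, which belong to the calcium- or sodium-activated families, were lower at -1.03 ± 0.19, -1.57 ± 0.30 and -1.44 ± 0.28. In DL Kcnmb2 was at or near noise, at 18.7, 17.9 and 12.7. The calls of Kcnmb2 and Kcnt1 were lost without any one of the 9 arrays, and that of Kcnn1 without DL array 1 or 2, any OMN array or any L5 array. Kcnv1, another silent subunit, was higher on 3 probe sets of 3, 275, 279 and 232 against 24, 28.4 and 21.8 (2.77 ± 0.18, adjusted p = 0.000601). Kcng1 was higher at 2.08 ± 0.37. Kcna6, a Kv1 subunit, was called higher by its brightest probe set (2.29 ± 0.25), but of its 3 probe sets 1 was called higher and 1 lower, so its direction is uncertain, the only called gene with probe sets called both ways. Kcna6 lost its call on the 6 arrays alone (adjusted p = 0.0585) and when its probe sets were averaged (adjusted p = 0.647, difference 0.27). The axonal Kv1 genes Kcna1 and Kcna2 were at -0.69 ± 0.20 and -1.04 ± 0.23 and were not called. Kcnv1, Kcnd3 and Kcng4 kept their calls whichever array was left out, but Kcnd3 lost its call on the 6 arrays alone (adjusted p = 0.0648) and with the Gapdh ratio in the model (adjusted p = 0.0644), and Kcng4 lost its call on the 6 arrays alone (adjusted p = 0.0566) and with a pseudocount of 1 (adjusted p = 0.0736). The call of Kcng1 was lost without any DL array, OMN array 1 or 2 or L5 array 1 and that of Kcnk1 was lost without DL array 1 or 3, any OMN array or any L5 array. Calls among the potassium channels numbered 4 without DL array 1, OMN array 1 or 2 or L5 array 1, 5 without OMN array 3 or L5 array 2 and 2 without both DL arrays 1 and 3. Of 16 HCN and voltage-gated calcium channel genes, limma called 0 (1 without L5 array 3), with 0 higher and 3 lower at an unadjusted p under 0.05. In a list of 16, a count of 0 is near the 3.00% of all genes. Hcn2, a pacemaker channel, read 324, 120 and 119 in DL and 324, 273 and 544 in OMN, and the groups overlapped.

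Calcium-binding proteins differed in opposite directions. Of 31 calcium handling genes, 2 were higher and 1 lower in DL. Pvalb, the fast calcium buffer parvalbumin, read 694, 846 and 688 in DL and 5170, 5394 and 5100 in OMN (-2.79 ± 0.22, adjusted p = 0.00157). Calb1, the buffer calbindin, read 448, 244 and 302 against 48.9, 65.4 and 23.7 (2.50 ± 0.28, adjusted p = 0.00576), with 1 of 4 probe sets called. Hpcal1, a calcium sensor, was higher (1.02 ± 0.18, adjusted p = 0.0332). The groups did not overlap in any of these genes. Pvalb and Calb1 kept their calls whichever array was left out, but Calb1 lost its call on the 6 arrays alone (adjusted p = 0.071) and when its probe sets were averaged (adjusted p = 0.118, difference 0.95). The call of Hpcal1 was lost without any one of the 9 arrays. Calls among the calcium genes numbered 0 without both DL arrays 1 and 3. Calb2, which encodes calretinin, was not called at 0.81 ± 0.30. Of 31 synaptic vesicle genes limma called 0, with 2 higher and 8 lower at an unadjusted p under 0.05, and the median was -0.21. In a list of 31, a count of 0 is near the 3.00% of all genes. Doc2b, a calcium sensor of vesicle release, and Syt2, a fast synaptotagmin, were at -1.34 ± 0.30 and -1.09 ± 0.28. Snap25 differed by -0.11 ± 0.18 with an interval of -0.53 to 0.31. Syn2, a synapsin, was not called by its brightest probe set (-0.66 ± 0.18, adjusted p = 0.115), whereas 4 of its 6 probe sets were called lower in the fit over all probe sets.

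**Figure D4:**
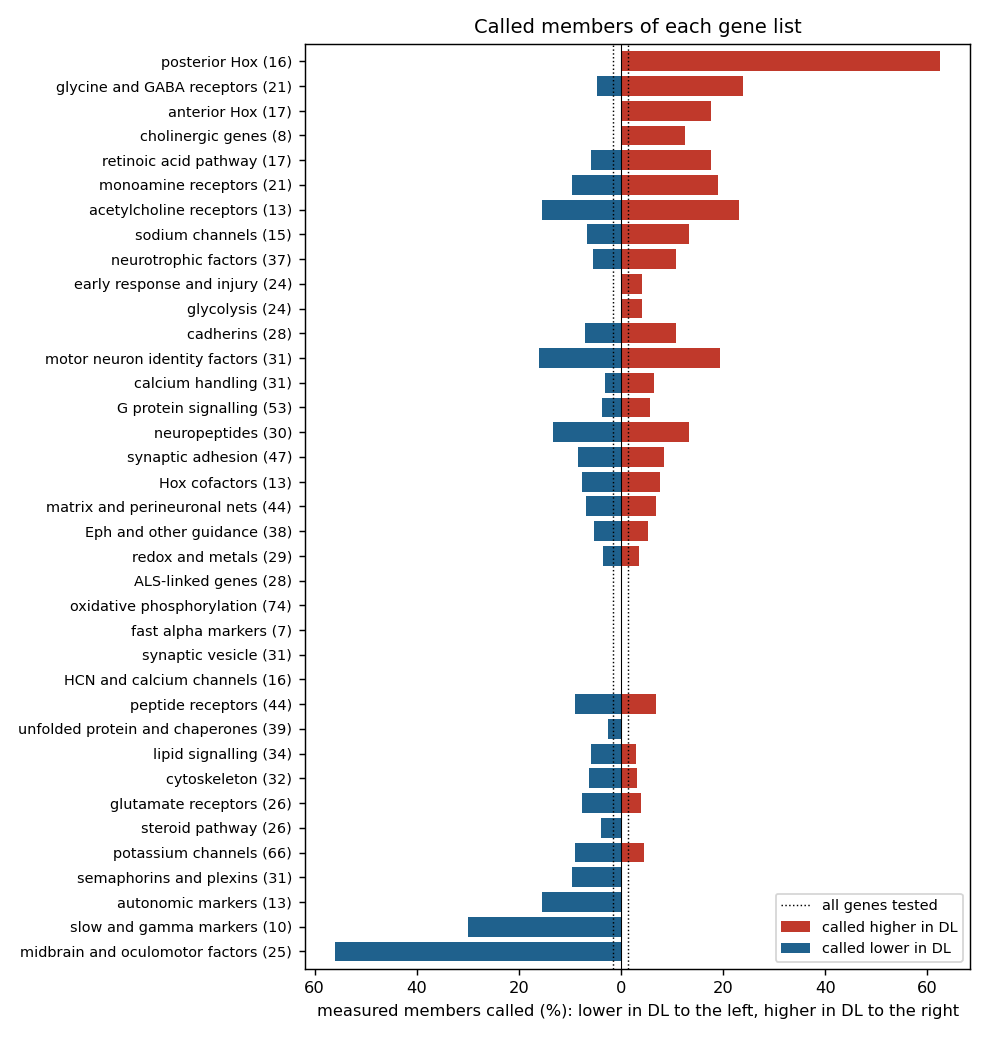
Share of the measured members of 37 gene lists called higher in DL (red, to the right) and lower in DL (blue, to the left), with the number of measured members in brackets and the shares over all genes, 1.36% and 1.64%, as dotted lines. Posterior Hox genes and midbrain and oculomotor factors stand out, and receptors and peptides have calls in both directions. Oxidative phosphorylation, ALS-linked, synaptic vesicle, HCN and calcium channel, and fast and alpha marker genes have none. Except for oxidative phosphorylation, a count of 0 in these lists is near the share over all genes.

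Genes that separate motor neuron types differed in part. Of 10 slow and gamma motor neuron markers 3, Htr1d, Esrrg and Esrrb, were lower in DL and 0 higher. Differences were above 0 in 5 and below 0 in 5, with a median of -0.10. At an unadjusted p under 0.05, 1 was higher and 4 were lower. Gfra1 and Npnt of this list ran the other way by their brightest probe sets, at 0.76 ± 0.20 and 0.82 ± 0.57, and were not called. In the fit over all probe sets, 1 of 3 for Gfra1 was called higher. For Npnt, 2 of 5 were called lower, so its direction is uncertain. Esrrg, an orphan nuclear receptor of gamma motor neurons, read 720, 902 and 464 in DL and 2695, 2278 and 2712 in OMN (-1.90 ± 0.26, adjusted p = 0.0123), and Esrrb, its relative, 150, 33.2 and 40.7 against 410, 492 and 422 (-2.56 ± 0.37, adjusted p = 0.0149). The arrays did not overlap. The call of Esrrg was lost without DL array 1 or any OMN array and that of Esrrb was lost without DL array 2 or 3 or OMN array 2 or 3. Calls among the slow and gamma markers numbered 1 without OMN array 2 or 3 and 1 without both DL arrays 1 and 3. Of the 7 fast and alpha markers limma called 0, with 2 higher and 1 lower at an unadjusted p under 0.05. In a list of 7, a count of 0 is near the 3.00% of all genes. Mmp9, a metalloproteinase of fast motor neurons, read 135, 19.1 and 50.3 in DL and 95.1, 83.7 and 104 in OMN. The groups overlapped, and the interval of its difference was -1.53 to 0.25. Chodl, another fast marker, differed by 0.42 ± 0.18. Of 13 autonomic and visceral motor genes, Tbx20 and Fbn2 were lower in DL and none was higher, Fbn2 at -1.82 ± 0.26 (lost without DL array 1 or 2 or OMN array 1 or 2). The count of that list was 1 without DL array 1 or 2 or OMN array 1 or 2 and 1 without both DL arrays 1 and 3. Nos1, the neuronal nitric oxide synthase of preganglionic neurons, read 5.4, 47.4 and 55.5 against 106, 35.5 and 56.2.

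Retinoic acid genes were mostly higher in DL where called. Of 17, 3 were higher and 1 lower, with a median of 0.16. Crabp1, a cytoplasmic retinoic acid binding protein, read 878, 1127 and 1936 in DL and 57.4, 94.8 and 41.7 in OMN (4.02 ± 0.38, adjusted p = 0.0028), and Crabp2, its relative, 539, 802 and 490 against 29.2, 35.5 and 25.4 (3.74 ± 0.36, adjusted p = 0.00318). Aldh1a2, the enzyme that makes retinoic acid in limb-level motor neurons, read 256, 130 and 235 against 8.4, 34.5 and 5.3 (2.86 ± 0.39, adjusted p = 0.0114). All DL arrays were above all OMN arrays in these genes, and Aldh1a2 on the L5 arrays was higher still, with a mean of 2284. Rxrg, a retinoid X receptor, was lower (-1.82 ± 0.27, adjusted p = 0.0171). Crabp1 and Crabp2 kept their calls whichever array was left out, while that of Aldh1a2 was lost without DL array 1 or OMN array 1 or 3 and that of Rxrg was lost without any DL array or OMN array 1 or 3. Calls among the retinoic acid genes numbered 2 without DL array 1 or OMN array 1 or 3 and 1 without both DL arrays 1 and 3. The share called among 26 steroid and nuclear hormone genes, 3.8%, lies near the 3.00% of all genes. The 1 call was Vdr, the vitamin D receptor, lower in DL. It was under noise on all DL arrays and read 144, 74.4 and 146 in OMN, at least 6.35-fold lower (-2.91 ± 0.39, adjusted p = 0.011, lost without DL array 1 or OMN array 1 or 3). The estrogen receptor gene Esr1 read 52.8, 61.1 and 26 in DL and 32.2, 79.6 and 42.9 in OMN, and the groups overlapped.

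Of 37 neurotrophic genes, 4 were higher and 2 lower in DL, with a median of -0.22. Bdnf, the brain-derived neurotrophic factor, read 449, 332 and 246 in DL and 56.5, 40.9 and 46 in OMN (2.46 ± 0.23, adjusted p = 0.00267). Ngfr, the p75 neurotrophin receptor, read 843, 947 and 1364 against 252, 266 and 264 (1.92 ± 0.24, adjusted p = 0.00806). Bdnf and Ngfr kept their calls whichever array was left out, but Ngfr lost its call on the 6 arrays alone (adjusted p = 0.0557) and with the Gapdh ratio in the model (adjusted p = 0.0545). Igfbp3 and Lifr were higher at 1.59 ± 0.24 and 1.19 ± 0.20, and Igf1 and Igfbp2, an insulin-like growth factor and a protein that binds it, were lower at -1.55 ± 0.28 and -1.74 ± 0.31. The call of Igfbp3 was lost without DL array 1 or 3 or any OMN array, that of Lifr was lost without any DL array, any OMN array or L5 array 2 or 3, that of Igf1 was lost without any one of the 9 arrays and that of Igfbp2 was lost without any DL array, any OMN array or L5 array 2 or 3. Calls among the neurotrophic genes numbered 2 without DL array 3 or OMN array 1 or 3, 3 without DL array 2, OMN array 2 or L5 array 2 or 3 and 0 without both DL arrays 1 and 3. Ret, the receptor for GDNF family ligands, differed by 0.01 ± 0.27 with an interval of -0.62 to 0.64.

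Cell surface and guidance genes were called in both directions, except that semaphorin genes were called only lower. Of 31 semaphorins, plexins and neuropilins, Plxna2, Nrp1 and Sema6d were lower in DL and none was higher, while 3 were higher and 7 lower at an unadjusted p under 0.05. Plxna2, a semaphorin receptor, read 516, 472 and 502 in DL and 1840, 1648 and 1572 in OMN (-1.73 ± 0.19, adjusted p = 0.00551), with 4 of 4 probe sets called. The calls of Nrp1 (-1.33 ± 0.23) and Sema6d (-0.99 ± 0.18) were lost without any one of the 9 arrays, and the list's count was 1 without any one of the 9 arrays and 0 without both DL arrays 1 and 3. Of 38 Eph, ephrin, netrin and Slit pathway genes, 2 were higher and 2 lower. Epha6, an ephrin receptor, read 17, 18.4 and 16.4 in DL and 490, 441 and 584 in OMN (-3.96 ± 0.21, adjusted p = 0.000322). Dcc and Unc5c, both netrin receptors, were higher at 1.45 ± 0.24 and 1.71 ± 0.25, while Ntn1, their ligand, read 61.4, 295 and 75.5 in DL and 546, 423 and 711 in OMN and was not called (-2.12 ± 0.48, adjusted p = 0.0709). Epha7 was lower at -2.27 ± 0.32. Epha6 and Plxna2 kept their calls whichever array was left out, but Plxna2 lost its call on the 6 arrays alone (adjusted p = 0.0516). The call of Dcc was lost without any DL array, any OMN array or L5 array 1, that of Unc5c was lost without DL array 1 or 2 or OMN array 1 or 3 and that of Epha7 was lost without DL array 1 or any OMN array. Calls among the Eph, netrin and Slit genes numbered 1 without DL array 1 or OMN array 1 or 3, 2 without OMN array 2 and 1 without both DL arrays 1 and 3.

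Of 28 cadherins and protocadherins, 3 were higher and 2 lower in DL. Pcdh17 read 2135, 2472 and 2224 in DL and 801, 853 and 933 in OMN (1.38 ± 0.22, adjusted p = 0.0207), and Pcdh18 was higher on 3 probe sets of 3 (1.74 ± 0.27, adjusted p = 0.0204). Cdh10 and Pcdh20 were lower at -2.24 ± 0.39 and -2.17 ± 0.36, and Cdh22 was higher at 1.23 ± 0.24. The call of Pcdh17 was lost without any DL array or any OMN array, that of Pcdh18 was lost without DL array 1 or 3, OMN array 1 or 3 or L5 array 3, that of Cdh10 was lost without DL array 1 or 2, any OMN array or L5 array 1 or 2, that of Pcdh20 was lost without DL array 1 or 3, OMN array 1 or 3 or any L5 array and that of Cdh22 was lost without DL array 1 or 2, any OMN array or any L5 array. Calls among the cadherin genes numbered 0 without DL array 1 or OMN array 1 or 3, 2 without DL array 2, OMN array 2 or any L5 array, 3 without DL array 3 and 1 without both DL arrays 1 and 3. Among 47 other adhesion and synapse organising genes, 4 were higher and 4 lower. The cerebellins, secreted organisers that bind neurexins, split: Cbln2 read 2251, 2215 and 2230 in DL and 238, 341 and 349 in OMN (2.81 ± 0.37, adjusted p = 0.00976), Cbln4 was higher at 1.79 ± 0.21, and Cbln1 was lower on 3 probe sets of 3, 160, 205 and 506 against 1595, 1576 and 1849 (-2.63 ± 0.35, adjusted p = 0.011). All 3 were without overlap between the pools. Nrn1, the neurite growth protein neuritin, was lower (-3.43 ± 0.52, adjusted p = 0.0179), with DL array 3 far below the other DL arrays at 30.4. Kirrel3 was higher at 1.48 ± 0.21 and Cntn2 lower at -2.15 ± 0.31. Cbln4 kept its call whichever array was left out, but Cbln4 lost its call on the 6 arrays alone (adjusted p = 0.071) and with the Gapdh ratio in the model (adjusted p = 0.0509). The call of Cbln2 was lost without OMN array 2, that of Cbln1 was lost without any OMN array, that of Nrn1 was lost without any OMN array, that of Kirrel3 was lost without DL array 1 or 2 or any OMN array and that of Cntn2 was lost without DL array 1 or any OMN array. Calls among the synapse organising genes numbered 1 without OMN array 2, 2 without OMN array 1 or 3, 4 without DL array 1, 5 without DL array 2 and 2 without both DL arrays 1 and 3.

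Of 44 genes of extracellular matrix and perineuronal nets, 3 were higher and 3 lower in DL. Hapln1 and Hapln4, link proteins that tie hyaluronan to proteoglycans in perineuronal nets, were lower. Hapln1 read 223, 280 and 360 in DL and 2278, 1964 and 2048 in OMN (-2.82 ± 0.25, adjusted p = 0.00247), with 4 of 4 probe sets called, and Hapln4 132, 101 and 257 against 720, 706 and 690 (-2.11 ± 0.31, adjusted p = 0.0149). Acan, the aggrecan core protein of the nets, was not called at -1.01 ± 0.39. Reln, the secreted protein reelin, read 734, 734 and 899 in DL and 114, 120 and 134 in OMN (2.53 ± 0.17, adjusted p = 0.000807). Tnc and Adamts4 were higher at 2.54 ± 0.47 and 0.97 ± 0.19 and Mmp2 lower at -1.74 ± 0.27. Hapln1 and Reln kept their calls whichever array was left out. The call of Hapln4 was lost without DL array 1 or any OMN array, that of Mmp2 was lost without OMN array 2 or 3, that of Tnc was lost without any DL array, OMN array 2 or 3 or L5 array 1 or 2 and that of Adamts4 was lost without any one of the 9 arrays. Calls among the matrix genes numbered 2 without OMN array 2 or 3 and 3 without both DL arrays 1 and 3.

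The shares called among G protein, lipid signalling and cytoskeletal genes were 9.4%, 8.8% and 9.4%, against 3.00% of all genes. Of 53 genes for G proteins and their regulators, Pde1c, Rgs4 and Rgs10 were higher in DL and Gngt1 and Rgs6 lower. Gngt1, a G protein gamma subunit known from rod photoreceptors, was under noise on all DL arrays, 1, 4.1 and 1.2, and read 307, 362 and 352 in OMN (-4.30 ± 0.22, adjusted p = 0.000301), with 3 of 4 probe sets called. Pde1c, a calcium-dependent phosphodiesterase, read 1856, 2416 and 1815 in DL and 549, 248 and 311 in OMN (2.47 ± 0.28, adjusted p = 0.006). Gngt1 and Pde1c kept their calls whichever array was left out, but Pde1c lost its call on the 6 arrays alone (adjusted p = 0.0741). The call of Rgs4 was lost without DL array 2 or 3 or any OMN array, that of Rgs10 was lost without DL array 1 or 3, any OMN array or L5 array 1 or 2 and that of Rgs6 was lost without any one of the 9 arrays. Calls among the G protein genes numbered 2 without DL array 3 or any OMN array, 3 without DL array 1 or 2 or L5 array 1 or 2 and 2 without both DL arrays 1 and 3. Of 34 lipid signalling genes, Sgpp2, a sphingosine phosphate phosphatase, was lower, 31.8, 9.8 and 29.8 in DL against 684, 858 and 765 in OMN (-4.35 ± 0.28, adjusted p = 0.000601), Inpp4b was lower at -1.32 ± 0.19 and Dgka higher at 1.66 ± 0.29. The call of Inpp4b was lost without DL array 1 or any OMN array and that of Dgka was lost without any DL array, any OMN array or L5 array 3. The count of lipid signalling genes was 1 without DL array 1 or any OMN array and 1 without both DL arrays 1 and 3. Of 32 cytoskeletal genes, 1, the astrocyte filament gene Gfap, was higher in DL (5.45 ± 0.31) and 2 were lower. Fign, which severs microtubules, was lower on 3 probe sets of 3, 44.5, 11.2 and 31.2 against 1581, 777 and 1098 (-4.72 ± 0.36, adjusted p = 0.00151), and Ina, the neurofilament partner alpha-internexin, was lower at -1.04 ± 0.18 (lost without any one of the 9 arrays). Sgpp2 and Fign kept their calls whichever array was left out. The neurofilament genes Nefl, Nefm and Nefh differed by -0.08 ± 0.19, -0.09 ± 0.18 and -0.17 ± 0.18 and were not called.

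Of 74 subunits of the respiratory chain and ATP synthase limma called 0, against 3.00% of all genes, with 0 at an unadjusted p under 0.05 against 16.1% of all genes, and the median was -0.03. The 95% interval of the difference lay between -1 and 1 for 71 of them, against 55.8% of all genes. Cox6a2, the muscle-type subunit, had the largest difference of the list at -1.06 ± 0.49, with overlapping groups. Of 28 genes of inherited ALS limma called 0, with 1 higher and 3 lower at an unadjusted p under 0.05 and a median of -0.05, and the interval lay between -1 and 1 for 23. In a list of 28, a count of 0 is near the 3.00% of all genes. Sod1, the superoxide dismutase, read 9080, 9648 and 7300 in DL and 8175, 8658 and 7599 in OMN, a difference of 0.08 ± 0.19 with an interval of -0.36 to 0.53. Tardbp, which encodes TDP-43, differed by 0.20 ± 0.18 with an interval of -0.21 to 0.62. Epha4, the ephrin receptor reported to modify ALS, read 174, 290 and 528 against 565, 520 and 744 and was not called (-0.97 ± 0.37, adjusted p = 0.255). Neither count changed on leaving out any one array, or DL arrays 1 and 3.

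Of 24 glycolysis and lactate genes, Slc16a3, a lactate carrier, was higher in DL (1.58 ± 0.32, adjusted p = 0.0499), a call lost without any DL array, OMN array 1 or 2 or any L5 array. Of 39 chaperone and unfolded protein genes, Hspa1b was lower (-1.96 ± 0.37, adjusted p = 0.0393, lost without any DL array, any OMN array or L5 array 1 or 3). Its sequence is nearly that of Hspa1a, which was not called at -1.05 ± 0.28, so the members of the pair cannot be separated with certainty. Of 29 redox and metal genes, Gpx3, the secreted glutathione peroxidase, was higher, 1136, 1470 and 1454 in DL against 154, 353 and 256 in OMN (2.40 ± 0.21, adjusted p = 0.0023), and Sod3, the extracellular superoxide dismutase, was lower at -2.22 ± 0.40 (lost without DL array 1 or 2, OMN array 1 or 2 or any L5 array). Sod3 was under noise on DL arrays 1 and 2 and read 29.3 on DL array 3. Of 24 immediate early and injury genes, the chemokine gene Ccl2 was higher at 1.28 ± 0.22 (lost without DL array 1 or 3, any OMN array or L5 array 2 or 3). Ccl2 was dim, at 42.5, 23.9 and 39.7 in DL, and under noise on all OMN arrays. Atf3, a factor of axotomised neurons, read 57, 2 and 70 in DL and 8.5, 26 and 16.9 in OMN and was not called. The redox list held 1 without DL array 1 or 2, OMN array 1 or 2 or any L5 array and 1 without both DL arrays 1 and 3, and the injury list 0 without DL array 1 or 3, any OMN array or L5 array 2, 2 without DL array 2 and 0 without both DL arrays 1 and 3. Without DL arrays 1 and 3 the glycolysis and chaperone lists held 0. The shares called in the glycolysis, chaperone and injury lists, 4.2%, 2.6% and 4.2%, lie near the 3.00% of all genes.

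Markers of other cells were measurable in both pools. Of 14 oligodendrocyte and myelin markers, Ermn, Cldn11, Ugt8a and Fa2h were higher in DL, with 11 higher and 2 lower at an unadjusted p under 0.05 and a median of 1.04. Their sum was 24213 to 26664 in DL, 14924 to 16569 in OMN and 18157 to 19169 in L5. The call of Ermn was lost without DL array 2 or 3 or OMN array 2 or 3, that of Cldn11 was lost without DL array 2 or 3 or any OMN array, and those of Ugt8a and Fa2h were lost without any one of the 9 arrays. Calls among the oligodendrocyte markers numbered 0 without DL array 2 or 3 or OMN array 2 or 3, 1 without OMN array 1, 2 without DL array 1 or any L5 array and 0 without both DL arrays 1 and 3. Gfap, the astrocyte filament, read 1074, 2333 and 1243 in DL and 12.2, 19.1 and 22.7 in OMN (5.45 ± 0.31, adjusted p = 0.000421), on 3 probe sets of 3, while 0 of the other astrocyte markers were called, with 2 lower at an unadjusted p under 0.05, and the sum over 14 was 24952 to 27280 in DL and 26332 to 27207 in OMN. Slc6a5, the glycine transporter of inhibitory neurons, read 440, 750 and 931 against 17.4, 39.2 and 11.1 (4.23 ± 0.31, adjusted p = 0.00112), and Slc32a1, the vesicular transporter of glycine and GABA, 1584, 1834 and 2227 against 390, 620 and 413 (1.97 ± 0.23, adjusted p = 0.00602). Below 0 were 2 of the 6 inhibitory neuron markers, neither of them called. Slc17a6, a vesicular glutamate transporter, was lower, 285, 177 and 144 against 1219, 1183 and 968 (-2.43 ± 0.21, adjusted p = 0.00219). It was the only call among 4 glutamatergic neuron markers, of which 2 were above 0 and 2 below, with a median of -0.12. No other member had all 3 arrays of a pool above noise. Of 10 markers of catecholamine and serotonin neurons, Th, Ddc and Slc6a2 were lower at -1.98 ± 0.31, -1.67 ± 0.22 and -1.01 ± 0.18, with Slc6a3, Slc6a4 and Pitx3 at or under noise on all 6 arrays. The other way ran 4 of the 10, among them Tph2 at 0.41 ± 0.38 and Dbh at 0.40 ± 0.24, none of them called. The sums of the list overlapped, 451 to 1621 in DL and 975 to 1123 in OMN, with DL array 3 the highest. The call of Th was lost without DL array 1 or any OMN array, that of Ddc was lost without OMN array 1 or 2 and that of Slc6a2 was lost without any one of the 9 arrays. Calls among the catecholamine markers numbered 0 without OMN array 1 or 2, 1 without DL array 1 or OMN array 3 and 1 without both DL arrays 1 and 3. Gfap, Slc6a5, Slc32a1 and Slc17a6 kept their calls whichever array was left out, but Slc32a1 lost its call on the 6 arrays alone (adjusted p = 0.0619) and when its probe sets were averaged (adjusted p = 0.139, difference 0.83). Of 14 microglia markers limma called 0 (1 without DL array 3), with 0 higher and 4 lower at an unadjusted p under 0.05, a median of -0.59 and a sum of 1502 to 1767 in DL and 2121 to 2584 in OMN. Of 12 endothelial markers it called 0, with 0 at an unadjusted p under 0.05, and their sum was 4285 to 4541 in DL and 3664 to 3898 in OMN. In lists of 14 and 12, a count of 0 is near the 3.00% of all genes. The part of these cells in the differences of other lists was not tested.

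**Figure D5:**
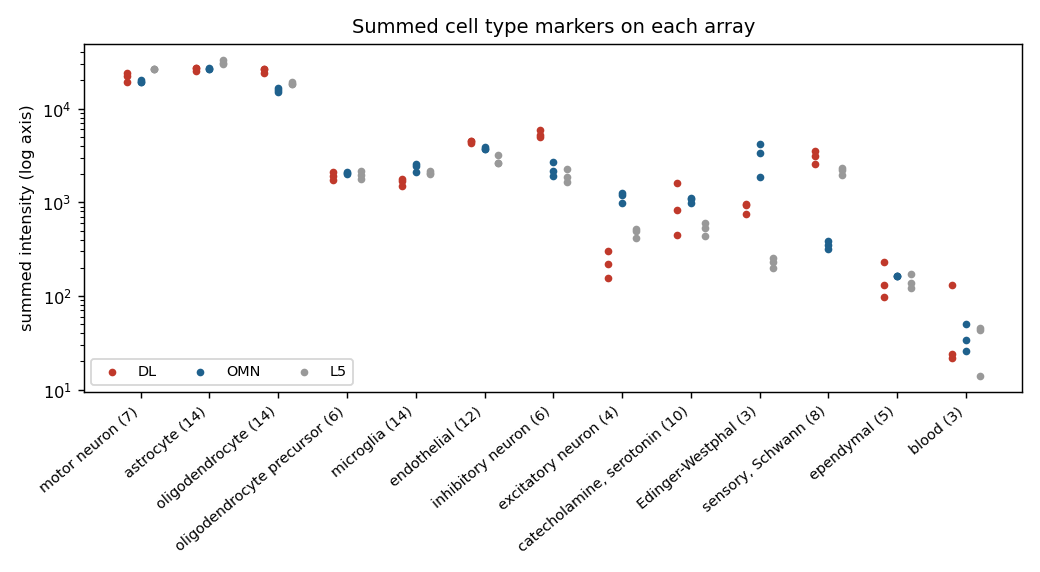
Summed intensity of the measured markers of 13 cell types on a log axis, with 1 point for each of the 3 arrays of DL (red), OMN (blue) and L5 (grey) and the number of markers in brackets. Oligodendrocyte, inhibitory neuron and sensory and Schwann cell sums are higher in DL than in OMN, excitatory neuron and Edinger-Westphal sums are lower, and motor neuron and astrocyte sums overlap. Slc17a6 makes up most of the excitatory neuron sum.

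Some of the 15 largest differences in each direction belonged to no list above. Lamp5, a lysosome-associated membrane protein of neurons, read 874, 597 and 1422 in DL and 31.6, 39 and 5.8 in OMN (4.58 ± 0.44, adjusted p = 0.00289). Prrxl1, a homeodomain factor of sensory and dorsal horn neurons, read 383, 334 and 411 against 1.7, 1.7 and 14.1 (4.21 ± 0.24, adjusted p = 0.000432). Snai2, a zinc finger factor known from the neural crest, read 501, 1009 and 813 against 53.1, 14.1 and 9.6 (4.34 ± 0.43, adjusted p = 0.00342). All 3 genes were higher on every DL array, and Lamp5, Prrxl1 and Snai2 kept their calls whichever array was left out, but Lamp5 lost its call on the 6 arrays alone (adjusted p = 0.0545), and Snai2 lost its call on the 6 arrays alone (adjusted p = 0.0545). Krt25, a keratin, was lower in DL, 1.6, 27.9 and 4.2 against 438, 685 and 733 (-4.63 ± 0.26, adjusted p = 0.000421). Lrrc38, an auxiliary subunit of BK channels, was at least 12.5-fold lower, with 0.5, 1 and 0.8 in DL and 223, 231 and 232 in OMN (-3.87 ± 0.19, adjusted p = 0.000256). Cnpy1, a gene of the midbrain and hindbrain border, and Dach2, a transcriptional cofactor, were lower at -4.01 ± 0.27 and -3.46 ± 0.38. Pde3a, a cyclic nucleotide phosphodiesterase, and Gpr39, a zinc receptor, were lower at -3.50 ± 0.29 and -3.47 ± 0.22. Krt25, Lrrc38, Cnpy1, Dach2, Pde3a and Gpr39 also kept their calls.

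The L5 arrays show where each difference lies in relation to limb-level motor neurons. Of the 247 genes called higher in DL, the L5 mean was nearer DL in 106 and nearer OMN in 141. Of the 298 called lower, it was nearer DL in 148 and nearer OMN in 150. Over all genes it was nearer OMN in 53%. Hoxc10, Glra1, Sst, Reln and Pmp22 were in L5 at 4027, 3716, 3631, 1187 and 2060, near or above their DL levels. Scn11a, Scn7a, Pirt, Kcnv1 and Gal were in L5 at 19.9, 4.90, 15.4, 24.5 and 29.1, within or under the range of their OMN arrays. Pvalb and Chrm1, both lower in DL, were at 731 and 15.5 in L5, near their DL levels, whereas Hapln1 and Fgf13 were at 1759 and 2265, near or above their OMN levels.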

How the data were processed

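Gene expression was measured on Affymetrix Mouse Genome 430 2.0 arrays, 3 for each of the pools DL, OMN and L5, grouped by their titles. The deposited values are intensities on a linear scale, 1 per probe set, which the authors had scaled so that the mean after trimming 2% at each end is 250.0 on every array, as the values themselves show. For the summarisation software, the sources used here give no name. Of 45037 probe sets other than controls, 34945 pair with 1 gene in the platform annotation, 932 with several and 9160 with none, and those with 1 gene gave 18193 named genes. A gene was taken as its probe set of highest mean log2(intensity + 16). The noise level, 18.3, comes from 27 control probe sets whose transcripts were not added, and was chosen after values were seen. A fold written as "at least" sets the mean of 1 pool against this level where all 3 arrays of the other were at or under it.

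Differences were fitted with limma 3.58.1 (R 4.3.3) on all 9 arrays, with pool and replicate number as terms, and p-values were adjusted by Benjamini-Hochberg over the 18193 genes. Called means an adjusted p under 0.05. A further fit ran over all probe sets and gave the counts of probe sets called. Intensities are given per array, errors of log2 differences are standard errors, and intervals are 95%. The p-values rest on the residual spread after the pool and replicate terms, taken as 1 spread for all pools with 4 residual degrees of freedom. The empirical Bayes step of limma drew the spread of each gene towards a value shared over genes. Errors, intervals and p-values use this moderated spread, and its degrees of freedom exceed the residual ones. The number of arrays limits their precision. In simulated data for DL against OMN with 18193 genes, the fit recovered 5% of changes of 1 on the log2 scale, 66% of changes of 2 and 86% of changes of 3, and 4.7% of its calls were false. The changes were planted in brighter genes only, with 1 Gaussian spread per gene for all pools. In the data the DL arrays varied more than those of OMN, so these shares need not hold for them. Promoter windows are from RefSeq. Genes named in the text are the 15 largest called differences in each direction, and, in each gene list, those of smallest p and the first of the list. Uts2, Adm, Kcnmb2, Kcnn1 and Kcnt1 were named after their values were seen.

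The comparison, its genes and the gene lists were chosen with earlier results of these data known. Alternatives were fits without the replicate term, on the 6 arrays alone, with pseudocounts of 1 and 64, with a noise filter, the mean of probe sets, quantile normalization, centring on the array median, trended robust variances, array weights, the Gapdh ratio as a covariate, and each array left out in turn. Leaving out DL arrays 1 and 3 together, and the 6 arrays without the replicate term, were added after the data were seen.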

Additional observations from a re-analysis of the deposited data

How the results depend on the processing

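DL and OMN differed in 545 genes, 247 higher and 298 lower in DL. The counts, as total, higher and lower, were 119, 62 and 57 on the 6 arrays alone, 196, 98 and 98 with a pseudocount of 1, 274, 124 and 150 after adding the Gapdh ratio to the model, 872, 418 and 454 with trended robust variances, and 126, 52 and 74 without DL arrays 1 and 3. Leaving out any one array gave 192 to 365 in all, 95 to 175 higher and 95 to 200 lower. Of the other settings, a pseudocount of 64 gave 713, the mean of probe sets 677, the noise filter 598, median centring 553, quantile normalization 505 and array weights 500. Of 147 named called genes, 54 kept their call in all 20 planned settings, as did 92 of all 545, and no named call changed sign. The cause of these shifts was not tested, except that fewer arrays entered some fits.

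Each animal gave all the pools, per the design text, but no label says that equal replicate numbers mark 1 animal. Deviations from the pool means correlated at -0.073 to 0.062 between arrays of equal number and at -0.066 to 0.056 between arrays of different number, and none exceeded 0.1, so these values give no sign that equal numbers pair the arrays. The 545 calls come from the fit with the replicate number as a block, chosen from the design text. Without the replicate block 712 genes were called, 321 higher and 391 lower, and on the 6 arrays without the block 398, 198 higher and 200 lower.

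With 3 arrays per pool and 4 residual degrees of freedom, changes of 1 on the log2 scale were seldom recovered in simulated data. Of 18193 genes, 3422 were at or under noise on all 6 arrays, a range without measurable differences. The DL arrays varied more than those of OMN.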
